A study of Mus musculus with 30 samples.

Results

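Microexons of 16 to 27 nucleotides (nt) were followed from mouse embryonic stem cells to neurons in an unedited line and in 4 lines edited in the splicing factor gene Puf60 or in Rbm38. The members were chosen by length alone: every cassette exon of the deposited splicing table that is 16 to 27 nt long, which gave 1542 of 192593 exon events. They lie in 1327 named host genes, and 148 of these hold more than 1 member. A library's inclusion level, the percent spliced in (PSI), was used only where at least 10 reads stood behind it. Of the 1542 members, 400 had fewer than 10 reads in every library, 1142 reached 10 reads in at least 1 library and 647 did so in all 30 libraries. In all, 344 members could be tested in at least 1 fit, those with 10 reads in every library of the fit and a mean PSI of 5 to 95. Counts over these tested members leave out exons that were nearly always or nearly never included.

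A microexon is too short to be recognised in the way that longer exons are, and its inclusion depends on nearby intronic elements and on dedicated splicing factors. In neurons a conserved network of microexons is switched on by the related proteins Srrm4 and Srrm3. Ptbp1 represses many of these exons in other cells, and Rest represses the Srrm4 gene outside the nervous system. Most neural microexons keep the reading frame and add a few residues to proteins of vesicle traffic, the cytoskeleton, adhesion and signalling. Puf60 is a splicing factor that binds pyrimidine-rich sequence near the 3′ splice site, and Rbm38 is an RNA-binding protein.

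The CGR8 stem cells were taken at 3 stages: undifferentiated (ESC), as embryoid bodies of day 8 treated with 6 µM retinoic acid (EB8), and after 7 days in culture as neurons (DIV7). Puf60_mEx5_HOM cells carried a homozygous deletion of Puf60 exon 5. Puf60_pEx5_HOM cells had a constitutive exon 5 on both alleles and Puf60_pEx5_HET cells on 1 allele. Rbm38KO cells carried a deletion in Rbm38, and WT cells were the unedited parental line. The lines were edited with CRISPR-Cas9, and each of the 15 combinations of line and stage had 2 polyadenylated RNA libraries, A and B. The labels do not say which clone or differentiation a library came from, so a p-value here reflects the spread between libraries A and B, which may be technical.

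The libraries held 23204150 to 38571969 reads over splice junctions. Inclusion of the edited Puf60 exon 5, a 51-nt exon at chr15:76074607-76074657 (mm10), lay between 7.49 and 13 PSI in the 6 Puf60_mEx5_HOM libraries and between 93.2 and 99 PSI in the 6 Puf60_pEx5_HOM libraries. It was 49.2 to 64.9 PSI in Puf60_pEx5_HET, 22.9 to 48.4 PSI in Rbm38KO and 20.7 to 44 PSI in WT libraries. The Puf60_mEx5_HOM libraries thus kept reads counted as inclusion of an exon labelled as deleted, and the source of these reads was not tested. Rbm38 was at 0 CPM (normalised spliced reads of a gene, scaled to 1000000 per library) in the 6 Rbm38KO libraries and at 8.54 to 87.4 CPM in the 6 WT libraries. Puf60 itself averaged 218 CPM in Puf60_mEx5_HOM against 336 in WT at ESC, 241 against 327 at EB8 and 173 against 253 at DIV7. These differences were under 2-fold (limma, adjusted p = 1.64e-05, 0.000195 and 8.71e-05). In Puf60_pEx5_HOM it averaged 359, 306 and 289 CPM at the same stages. The part of the Puf60 level in the exon differences was not tested. The DIV7 cultures are labelled glutamatergic, but the authors' deposited table lists the transporter genes Slc17a6 at 17.8 and Slc17a7 at 0.03 RPKM in WT DIV7, beside Gad1 at 111.47, Gad2 at 32.32 and Slc6a5 at 54.46 RPKM, markers of GABAergic and glycinergic cells. In these bulk samples fewer cells of a type and less of an isoform per cell cannot be told apart.

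The sequences below are the microexons on which the results turn, read from GENCODE vM21 transcripts (GRCm38, the assembly of mm10) in the sense of the host gene. Capitals mark the microexon and lower case the 18 nt of spliced transcript on each side. The first 6 were near 0 or low in stem cells and high in neurons.
Ap1b1, chr11:5033242-5033262, plus strand: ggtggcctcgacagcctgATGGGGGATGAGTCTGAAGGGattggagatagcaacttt
Clasp2, 24 nt, chr9:113858581-113858604, plus strand: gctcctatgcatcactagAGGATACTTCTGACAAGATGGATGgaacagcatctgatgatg
Clasp2, 18 nt, chr9:113860120-113860137, plus strand: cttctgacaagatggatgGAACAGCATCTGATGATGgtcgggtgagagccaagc
Exoc1, chr5:76540747-76540767, plus strand: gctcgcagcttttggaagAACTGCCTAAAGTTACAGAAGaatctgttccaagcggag
Ppfia4, chr1:134311529-134311555, minus strand: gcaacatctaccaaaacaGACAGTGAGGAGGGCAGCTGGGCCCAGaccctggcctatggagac
Src, chr2:157458843-157458860, plus strand: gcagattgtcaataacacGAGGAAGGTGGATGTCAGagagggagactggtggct
The next 2 were high in stem cells and low in neurons.
Mroh1, chr15:76432372-76432398, plus strand: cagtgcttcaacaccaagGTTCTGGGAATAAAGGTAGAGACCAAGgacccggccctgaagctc
Tet2, chr3:133479342-133479365, minus strand: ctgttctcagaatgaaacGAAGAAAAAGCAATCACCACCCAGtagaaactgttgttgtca
The next 5 differed between the edited Puf60 lines in ways that are given with their values below.
Slit2, 24 nt, chr5:48220967-48220990, plus strand: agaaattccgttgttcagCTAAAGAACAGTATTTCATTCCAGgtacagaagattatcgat
Slit2, 27 nt, chr5:48263641-48263667, plus strand: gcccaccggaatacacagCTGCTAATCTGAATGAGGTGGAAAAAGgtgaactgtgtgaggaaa
Cacna2d2, chr9:107519179-107519199, plus strand: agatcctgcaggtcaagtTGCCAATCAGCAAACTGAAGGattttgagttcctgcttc
Picalm, chr7:90194273-90194296, plus strand: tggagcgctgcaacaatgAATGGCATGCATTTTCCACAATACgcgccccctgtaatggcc
Fip1l1, chr5:74585046-74585072, plus strand: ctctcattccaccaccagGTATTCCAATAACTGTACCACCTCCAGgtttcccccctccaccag
The last 6 are microexons at matching places of paralogous genes.
Tenm3, chr8:48287133-48287153, minus strand: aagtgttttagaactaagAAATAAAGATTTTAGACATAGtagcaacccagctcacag
Tenm4, chr7:96854717-96854737, plus strand: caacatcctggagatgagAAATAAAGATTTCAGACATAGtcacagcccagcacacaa
Fry, chr5:150488961-150488978, plus strand: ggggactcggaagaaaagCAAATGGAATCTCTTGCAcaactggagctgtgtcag
Fryl, chr5:73024771-73024788, minus strand: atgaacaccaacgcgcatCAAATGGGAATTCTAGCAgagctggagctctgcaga
Cpeb4, chr11:31918801-31918824, plus strand: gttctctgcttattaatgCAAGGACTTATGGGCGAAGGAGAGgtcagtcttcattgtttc
Cpeb3, chr19:37105791-37105814, minus strand: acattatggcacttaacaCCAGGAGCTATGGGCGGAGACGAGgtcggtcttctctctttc
In the Clasp2 transcript shown, the lower-case run after the 24-nt exon is the 18-nt exon itself, so the pair are neighbours in 1 mRNA. The Tenm3 and Tenm4 exons share 20 of 21 bases (95.2%), Fry and Fryl 14 of 18 (77.8%), and Cpeb4 and Cpeb3 18 of 24 (75%).

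By position, 959 of the 1542 members (62.2%) matched a coding exon of the annotation, 443 matched no annotated exon, and 36 lay in untranslated sequence. The length was a multiple of 3 in 875 members (56.7%), so that they keep the reading frame. Of the 723 members measured in WT at every stage, 249 were over 95 PSI at all 3 stages and 206 under 5 PSI at all 3. Members over 50 PSI numbered 315 at ESC, 348 at EB8 and 417 at DIV7. Of the 723, 71 were over 50 PSI at DIV7 and under 5 PSI at ESC, and 56 of the 71 had an intermediate level of 5 to 50 PSI at EB8. No member was over 50 PSI at DIV7 and under 5 PSI at both EB8 and ESC. Only 2 members were under 20 PSI at DIV7 and over 50 PSI at ESC, and these were Mroh1 and Tet2.

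Among the 207 members measured in all 30 libraries with a mean PSI of 5 to 95, the median PSI of a library was 3.2 to 6 in stem cells, 25.6 to 45.1 in embryoid bodies and 68.3 to 77.8 in neurons. The libraries of the 3 stages did not overlap. In each ESC library 100 to 111 of the 207 were under 5 PSI, so many passed the limit on mean PSI only through later stages. The size of the gap between stages is partly set by this. Over all 647 members measured in every library, without that limit, the medians were 7.1 to 12.5 in stem cells, 35.3 to 57.6 in embryoid bodies and 75.8 to 83.7 in neurons. At EB8 the medians were 42.3 and 45.1 in Puf60_mEx5_HOM, 26.4 and 27.7 in Puf60_pEx5_HOM, 44.7 and 38.9 in Puf60_pEx5_HET, 35.2 and 25.6 in Rbm38KO, and 31.4 and 34.3 in WT. Both Puf60_mEx5_HOM and both Puf60_pEx5_HET libraries stood above the WT libraries, and both Puf60_pEx5_HOM libraries below them. The Rbm38KO libraries lay on either side of them. The lines were thus not ordered by their inclusion of Puf60 exon 5, which was higher in Puf60_pEx5_HET than in WT. The typical difference between libraries A and B of a group, as the median over tested members, was 3.16 to 4.98 PSI points.

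**Figure D1:**
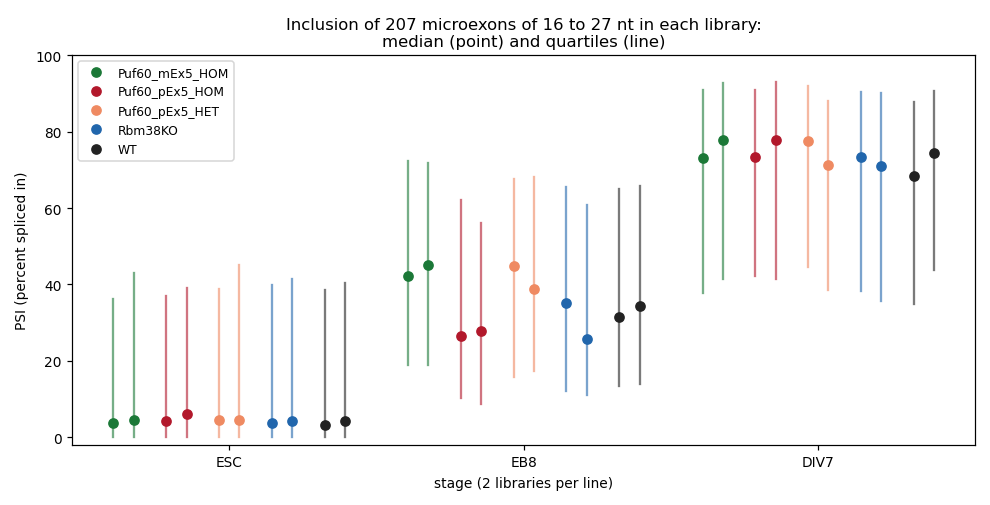
Median PSI (point) and quartiles (line) of 207 microexons of 16 to 27 nt in each of the 30 libraries, by stage on the horizontal axis and line by colour. The ESC medians lie at 3.2 to 6, the EB8 medians at 25.6 to 45.1 and the DIV7 medians at 68.3 to 77.8. At EB8 the Puf60_mEx5_HOM and Puf60_pEx5_HET points are above and the Puf60_pEx5_HOM points below the WT points.

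The step from embryoid bodies to neurons was asked first in WT. Of 250 members tested, 137 rose and 13 fell in DIV7 against EB8. A call needed 10 PSI points or more and an adjusted p below 0.05. Over the 24134 splicing events of all kinds in the same fit, 16.5% were called, 10% higher and 6.50% lower, against 54.8% of the members higher and 5.2% lower. The median difference was 17.63 PSI points over the members and 0.77 over all events. The adjusted p is from a read-weighted limma fit to the log2 ratio of inclusion to exclusion reads, with Benjamini-Hochberg adjustment over all events. A value in this fit rested on a median of 142 reads, with quartiles of 66 and 278, and at 50 PSI the counting error of 142 reads alone spans 41.9 to 58.1 PSI (Wilson, 95%).

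Tested members were grouped into 6 lists by what their host genes do. The lists are fixed sets of gene names, chosen with earlier results of these data known, and do not hold every gene of a role. Of the 13 members that fell, 12 were in no list. The shares per list, here and below, therefore depend on which genes were listed and are descriptions only. In membrane traffic, 15 of 16 tested members were higher and none lower, with a median difference of 41.08 points. The exon of Ap1b1, the β subunit of the AP-1 clathrin adaptor, was at 0.5 and 0.521 PSI at ESC, 22.1 and 17.9 at EB8 and 88.1 and 93.3 at DIV7, a rise of 70.68 points in the last step (adjusted p = 1.08e-11). It rested on 551 to 1377 reads in every library. Cadps, a priming factor of dense-core vesicles, was too little expressed at ESC to be measured and had 79.7 and 82.2 PSI at DIV7 against 9.32 and 7.76 at EB8 (72.39 points, adjusted p = 2.36e-11). Exoc1, a subunit of the exocyst tethering complex, stood at 0.791 and 1.61 PSI at ESC, 47.5 and 50.8 at EB8 and 93.3 and 96.4 at DIV7, a rise in both steps (47.97 and then 45.69 points). Bin1, a BAR-domain membrane-bending protein, was at 0 in 212 reads at ESC, which allows up to 1.42% inclusion, and had 88.4 and 91 PSI at DIV7 against 34.3 and 41.3 at EB8 (51.97 points, adjusted p = 6.41e-07). This list also held the 21-nt and 24-nt exons of Synj1, the phosphoinositide phosphatase of clathrin-coated vesicles. The 21-nt Synj1 exon rose by 59.9 points to 94.7 and 97.9 PSI at DIV7, and the 24-nt exon by 16.14 points to 72.9 and 74.6 PSI.

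Cytoskeletal host genes had 24 of 32 tested members higher and none lower, with a median of 29.61 points. Clasp2, which stabilises microtubule plus ends, carried 5 tested members within chr9:113858581-113878773, and all 5 rose between EB8 and DIV7. Its 18-nt exon was absent from 272 reads at ESC (up to 1.1% allowed), at 16.8 and 23.5 PSI at EB8 and at 87.7 and 93.8 PSI at DIV7 (70.57 points, adjusted p = 1.48e-10). The neighbouring 24-nt exon was at 86.7 and 90.6 PSI at DIV7 against 33.5 and 43.5 at EB8 (50.18 points). Its 3 other members rose by 47.09, 55.46 and 33.96 points. The exon of Clip1, a microtubule plus-end linker, was at 72.5 and 87.4 PSI at DIV7 against 18.8 and 18.4 at EB8 (61.32 points, adjusted p = 5.02e-10). In Clasp1, the paralogue of Clasp2, 2 of 3 tested members rose, and the third was at 94.7 and 93.7 PSI at DIV7 against 87 and 85.4 at EB8. Kif1a, a kinesin of synaptic vesicle precursors, had 1 riser among 3, a 27-nt exon at 23.2 and 23.8 PSI at DIV7 against 4.91 and 10.4 at EB8 (15.84 points, adjusted p = 0.00027).

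Of 12 host genes with 2 or more tested members, 30 in all, 7 had every member higher, 2 had none called and none had a higher member beside a lower one. Nrxn3, a presynaptic adhesion protein, was one of the hosts without a call. Its 18-nt exon was at 91.1 and 98.5 PSI at DIV7 and 94.1 and 92.8 at EB8. The 27-nt Nrxn3 exon at chr12:89354453-89354479 was at 58 and 63.6 PSI at DIV7 and 62.3 and 53.1 at EB8, and the one at chr12:89517906-89517932 at 3.16 and 6.9 and at 3.03 and 6.79 PSI. Exons of one host gene thus had levels from near 0 to over 90 PSI in the same libraries.

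Among adhesion proteins, receptors and channels, 15 of 25 tested members rose and 1 fell, with a median of 22.8 points. The teneurins Tenm3 and Tenm4 are paired cell-adhesion receptors, and their nearly identical 21-nt exons took the same course. Tenm3 was at 0 in both ESC libraries, at 15.2 and 16.6 PSI at EB8 and at 72.7 and 83.5 PSI at DIV7 (62.19 points, adjusted p = 1.17e-10). Tenm4 was at 0 and 3.26 PSI at ESC, 17.9 and 51.5 at EB8 and 90.4 and 92.2 at DIV7 (56.62 points, adjusted p = 5.36e-05), with its EB8 libraries far apart. The 1 member of the list that fell was Cacna2d2, which encodes the α2δ-2 subunit of calcium channels. It had 46.9 and 46.9 PSI at DIV7 against 69.2 and 74.2 at EB8 (a difference of -24.73 points, adjusted p = 0.000701).

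Signalling proteins, chiefly kinases and regulators of small GTPases, had 13 of 19 members higher and none lower, with a median of 38.61 points. Rapgef6, an exchange factor for Rap, was at 85.5 and 90 PSI at DIV7 against 26.1 and 28.5 at EB8 (60.49 points, adjusted p = 7.05e-08). The 18-nt N1 exon of the tyrosine kinase Src lengthens the ligand-binding loop of the SH3 domain in the neuronal form of the protein. It was at 5.92 and 3.94 PSI at ESC, 53.2 and 55.8 at EB8 and 80.1 and 78 at DIV7 (24.57 points in the last step, adjusted p = 1.75e-06). The exon of Mast2, a serine/threonine kinase outside the fixed lists, rose by 64.3 points to 86.7 and 93 PSI at DIV7 (adjusted p = 1.35e-07). The 21-nt exon of its paralogue Mast3 was low throughout, at 5.87 and 10.4 PSI at ESC, 10.6 and 9.92 at EB8 and 1.41 and 2.25 at DIV7, and these 2 exons share 9 of 21 bases (42.9%).

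Transcription and chromatin proteins had 4 of 7 members higher, and RNA processing and translation 2 of 8, with none lower in either list. The exons of the transcription factors Mef2a and Mef2d rose by 53.24 and 39.95 points, Mef2a to 74 and 89.4 PSI at DIV7. Phf21a, a reader subunit of the histone demethylase complex that works with Rest, was at 68.6 and 78.5 PSI at DIV7 against 44.4 and 46.1 at EB8 (28.34 points, adjusted p = 0.00121). In the translation factor Eif4g3 the exon was at 65.6 and 72.4 PSI at DIV7 against 19.1 and 22.7 at EB8 (48.16 points, adjusted p = 2.59e-09). The 143 tested members in no list had 64 higher and 12 lower, with a median of 12.25 points. The largest rise among the tested members, 76.26 points, was in this remainder, in the bromodomain protein Baz2b. Its exon was at 22.9 and 11.2 PSI at ESC, 22.4 and 21.4 at EB8 and 98.1 and 98.3 at DIV7, and its EB8 libraries lay within the range of its ESC libraries (adjusted p = 2.03e-11 for the last step).

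Members that fell between EB8 and DIV7 were few and changed less. The largest fall was in Mroh1, which was at 91.8 and 83.1 PSI at ESC, 48.5 and 44.3 at EB8 and 12.4 and 3.66 at DIV7 (-38.36 points in the last step, adjusted p = 3.24e-07). Sgce, ε-sarcoglycan, was at 91.4 and 98.1 PSI at ESC, 72.9 and 76.9 at EB8 and 45.8 and 36.3 at DIV7 (-33.85 points in the last step). Nmt2, an N-myristoyltransferase, was at 59.6 and 57.5 PSI at DIV7 against 98 and 89.7 at EB8 (-35.32 points, adjusted p = 0.000307). Prom1, a membrane protein of stem and progenitor cells, was at 84.6 and 94.5 PSI at ESC, 75.3 and 67.1 at EB8 and 52.1 and 45 at DIV7. Its last step, -22.65 points, was not called without library A of EB8 (-18.55) or library B of DIV7 (-19.12). Znhit1 was highest at EB8, with 27.5 and 30.1 PSI at ESC, 66.7 and 68.6 at EB8 and 46.4 and 42.8 at DIV7.

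**Figure D2:**
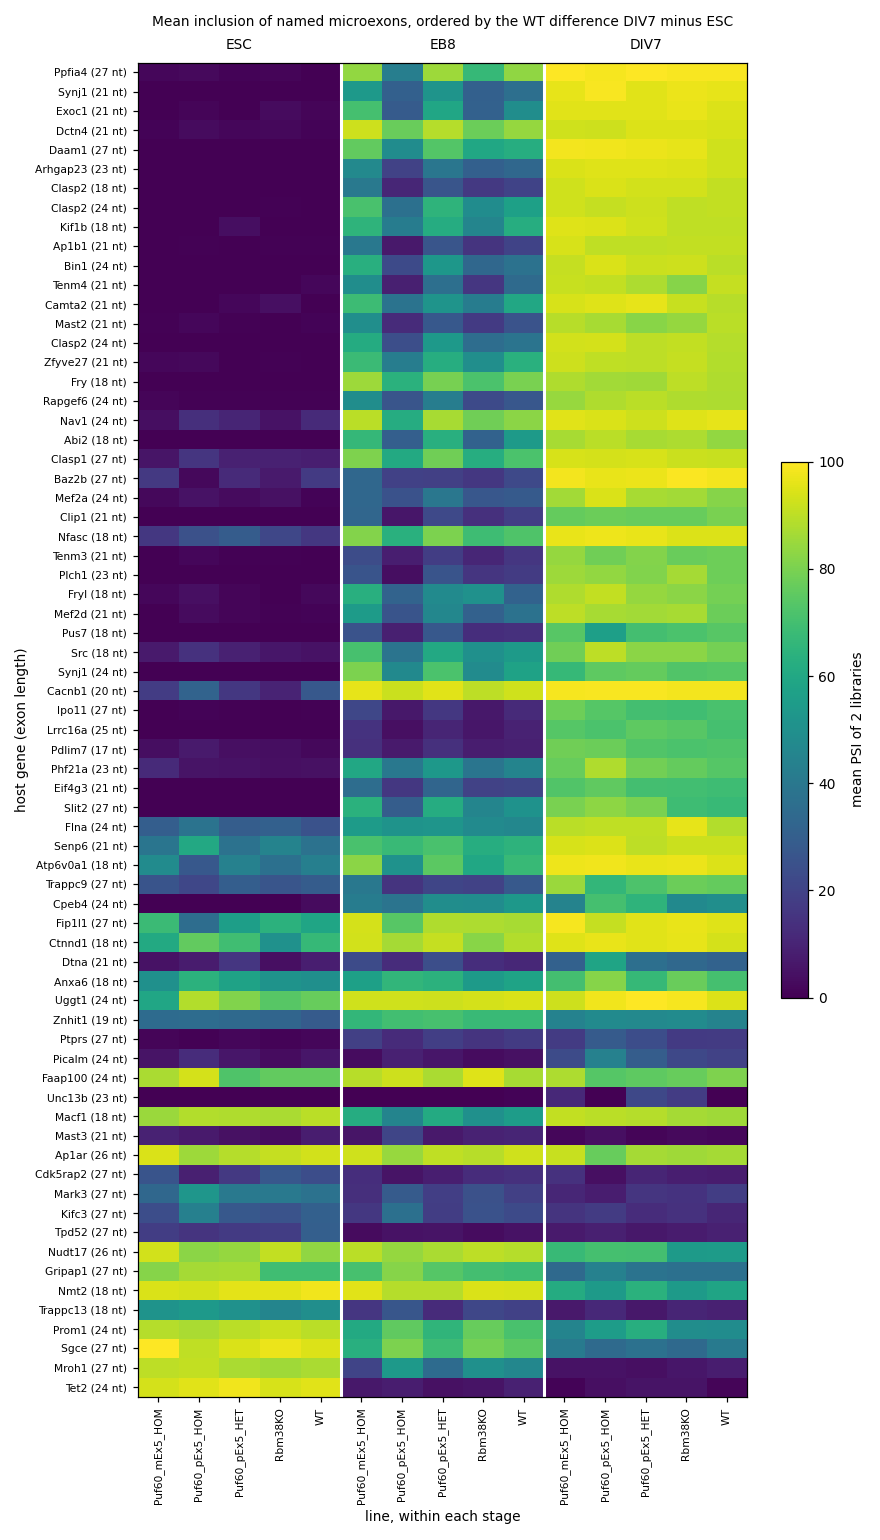
Mean PSI of the 2 libraries of each group for the 69 of 83 named microexons that were measured in every group, ordered by the WT difference between DIV7 and ESC, with the lines side by side within each stage. Most rows go from dark (near 0) at ESC through intermediate colours at EB8 to yellow (near 100) at DIV7, while Tet2 and Mroh1 at the bottom go the other way.

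A like share of members rose in the earlier step, from stem cells to embryoid bodies. In WT, 107 of 195 tested members (54.9%) rose and 9 fell in EB8 against ESC, where 13.5% of all 20876 events were called, 8.20% higher and 5.25% lower. The median difference was 16.08 points over the members and 1.18 over all events. In the fit of the ESC libraries alone 119 members were tested. Many of the 195 therefore passed the limit on mean PSI only through their EB8 libraries, and the share that rose is partly set by this. Membrane traffic had 9 of 11 members higher, the cytoskeleton 18 of 26 with 2 lower, adhesion and channels 9 of 11 and signalling 12 of 17.

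Several exons were almost fully switched in this step. Ppfia4, the active-zone scaffold liprin-α4, had 85.5 and 81.6 PSI at EB8 and none in 51 reads at ESC, which allows up to 5.88% (83.54 points, adjusted p = 2.81e-05). Dctn4, a subunit of dynactin, was at 82.8 and 85.2 PSI at EB8 against 0.41 and 1.25 at ESC (83.18 points, adjusted p = 5.62e-10). Fry had 74.6 and 85.4 PSI at EB8 against 0 at ESC (80.01 points), while the exon of its paralogue Fryl had 30.7 and 32.5 against 4.36 and 0 (29.46 points, adjusted p = 0.00335). The exons of Fry and Fryl share 14 of 18 bases, yet Fry was nearly complete at EB8 and Fryl reached 66.5 and 91.5 PSI only at DIV7. Cacnb1, the β1 calcium channel subunit, started higher and was at 92.2 and 93.2 PSI at EB8 against 37.5 and 17.8 at ESC. Zfyve27, or protrudin, Kif1b, a kinesin, and Daam1, a formin, were each between 58.9 and 67.9 PSI at EB8, against 0 in both ESC libraries. The 18-nt exon of Nfasc, the axonal adhesion protein neurofascin, was at 16.6 and 15.5 PSI at ESC, 68.3 and 76.9 at EB8 and 95.4 and 94 at DIV7. That of Camta2, a transcription activator, was at 0 in both ESC libraries, 51.1 and 68.4 PSI at EB8 and 88.1 and 90.6 at DIV7.

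The 9 members that fell in this step included 2 in genes of DNA methylation. Tet2, which oxidises methylcytosine, was at 10.9 and 7.17 PSI at EB8 against 95.1 and 96 at ESC (-86.49 points, adjusted p = 5.51e-06). Dnmt3b, a de novo DNA methyltransferase, had 13 and 28.3 PSI at EB8 against 98.2 and 98.8 at ESC (-77.88 points, adjusted p = 1.05e-11), and its 17-nt exon matches no annotated exon. Macf1, a spectraplakin that links actin and microtubules, dipped at EB8. It was at 89.2 and 89.7 PSI at ESC, 56.7 and 54.1 at EB8 and 86.3 and 85.2 at DIV7, and both steps were called. Trappc13, a subunit of a TRAPP complex, was at 45.7 and 52.9 PSI at ESC, 18.3 and 20.1 at EB8 and 12.7 and 5.8 at DIV7, while Tpd52 was at 33.3 and 27.3, 5.76 and 3.73, and 9.74 and 8.29 PSI at the same stages. Mark3, a kinase of microtubule-associated proteins, was at 20.3 and 17.5 PSI at EB8 in WT, against 30.8 and 44.6 at ESC (-18.76 points), and was not called without library B of ESC (-11.88) or library B of EB8 (-17.36).

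The edited lines repeated both steps with libraries of their own. From EB8 to DIV7, 127 members rose and 13 fell in Puf60_mEx5_HOM, where 8.01% of all events rose and 5.81% fell. In Puf60_pEx5_HOM 168 rose and 16 fell (10.9 and 8.47% of all events), in Puf60_pEx5_HET 136 and 11 (7.72 and 6.91%) and in Rbm38KO 152 and 16 (9.44 and 8.98%). All 5 lines called 116 of the 250 members higher and 6 lower, and 49 members were called in no line. Of the 137 members that rose in WT, 135 had a positive difference in all 5 lines, and all 13 that fell had a negative one. From ESC to EB8, 122 rose and 12 fell in Puf60_mEx5_HOM (9.98 and 7.42% of all events), 87 and 8 in Puf60_pEx5_HOM (6.82 and 4.48%), 114 and 11 in Puf60_pEx5_HET (9.81 and 6.12%) and 106 and 10 in Rbm38KO (8.28 and 5.09%). The 107 risers of WT were positive and its 9 fallers negative in every line.

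Members that keep the reading frame rose in a larger share than the others. Between EB8 and DIV7 in WT, 119 of 203 tested members with a length divisible by 3 rose (58.6%), against 18 of 47 others (38.3%). In the step from ESC to EB8 it was 97 of 152 (63.8%) against 10 of 43 (23.3%). By length, 27 of 42 members of 18 nt, 33 of 47 of 21 nt, 32 of 56 of 24 nt and 27 of 58 of 27 nt rose from EB8 to DIV7. Of the 32 tested members that match no annotated exon, 10 rose and 3 fell. These shares are descriptions, and the difference between them was not tested.

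The members that rose in WT between EB8 and DIV7 had a median length of 23 nt, a median base composition of 45.8% G and C, and median flanking introns of 1981 nt upstream and 1384 nt downstream. Those not called had medians of 24 nt, 44.4%, 1535 nt and 1801 nt, and the 13 that fell lay in short introns, with medians of 909 and 705 nt. The median change in mRNA level of the host genes was 0.53 on the log2 scale for rising members and 0.23 for members not called. For 136 rising members with a measured host gene, the host rose by at least 2-fold in 45 cases and fell in 6. For 100 members not called the host rose in 29 cases and fell in 10. A host with several members counts once per member here. Of all genes, each counted once, 17.6% rose and 12.7% fell.

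Microexons of 3 to 15 nt, the shorter class, had like shares. In WT, 100 of 169 of them rose (59.2%) and 13 fell from EB8 to DIV7, while of 6729 longer cassette exons 15.1% rose and 14.1% fell. From ESC to EB8, 84 of 132 of the shorter class rose (63.6%), against 13.2% of 5872 longer exons. Both microexon classes had more higher than lower calls in both steps, and the difference between classes was not tested.

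**Figure D3:**
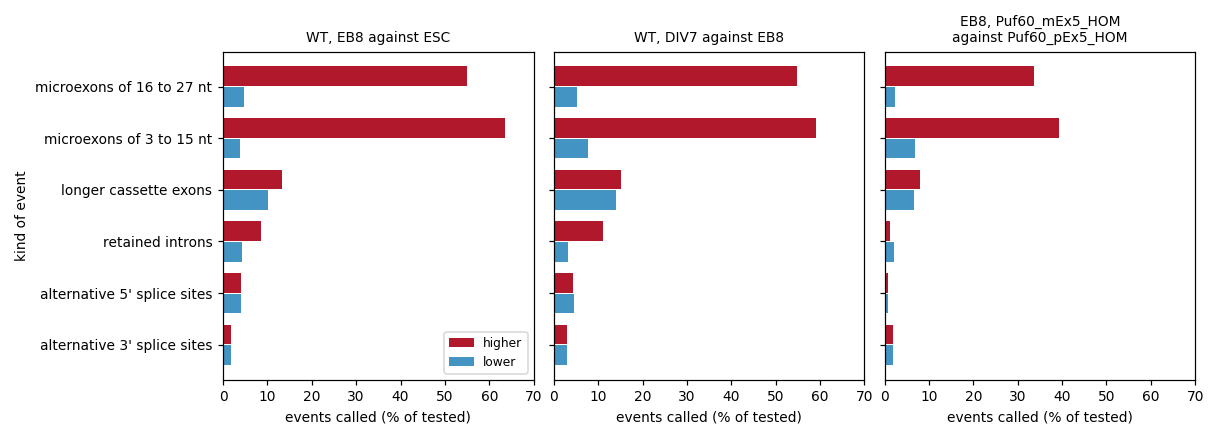
Share of tested events called higher (red) and lower (blue), in percent, for each kind of splicing event, in the WT steps and between the homozygous Puf60 lines at EB8. Both microexon classes have long red and short blue bars, and for microexons of 16 to 27 nt the red bars reach 54.9, 54.8 and 33.6%, against 13.2, 15.1 and 8.01% for longer cassette exons.

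Known regulators of microexons changed over the same stages. In WT Srrm4 averaged 0.62 CPM at ESC, 38.6 CPM at EB8 and 26.7 CPM at DIV7, and Srrm3 0.778, 36 and 50.2 CPM, and both rose between ESC and EB8 (4.61 and 4.38 on the log2 scale, limma, adjusted p = 3.52e-17 and 2.46e-15). Ptbp1 averaged 1250, 367 and 103 CPM and Rest 45.6, 5.19 and 1.38 CPM, and both fell in each step. Of 26 splicing regulators, 12 rose and 5 fell from ESC to EB8 and 4 rose and 4 fell from EB8 to DIV7, where 21.7% of all 13938 genes rose and 18.2% fell in the first of these steps and 17.6% rose and 12.7% fell in the second. The 5 neuron markers summed to 2310 to 2710 CPM at DIV7 and 62.2 to 82.1 CPM at ESC in WT, and all 5 rose in both steps. The 3 astrocyte markers rose in the last step as well, with sums of 268 to 390 CPM at DIV7 against 4.3 to 9.28 at EB8. So did 2 of 3 oligodendrocyte markers (32 to 36.9 against 7.94 to 9.42 CPM) and 1 of 2 fibroblast and muscle markers (185 to 690 against 49.1 to 91.7 CPM). The part of any of these in the change of the exons was not tested.

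The most calls between lines were between the homozygous Puf60 lines in embryoid bodies. At EB8, 90 of 268 tested members were higher and 6 lower in Puf60_mEx5_HOM than in Puf60_pEx5_HOM, where 6.64% of all 28046 events were called, 3.58% higher and 3.06% lower. The median difference was 8.25 PSI points over the members and -0.09 over all events. Membrane traffic had 10 of 14 members higher (median 26.52 points), signalling 10 of 19 (20.43), the cytoskeleton 17 of 33 with 1 lower (12.92), transcription and chromatin 3 of 7, RNA processing 2 of 8, and adhesion and channels 7 of 27 with 1 lower. Members with a length divisible by 3 made up 84 of the 90, and 212 of the 268 tested. Without weights by read number, so that every library counted the same, 51 members were called at this stage, higher and lower together, and without the limit on mean PSI 53.

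Named examples had libraries far apart. Exoc1 was at 66.7 and 74.1 PSI in Puf60_mEx5_HOM, against 26.1 and 31.2 in Puf60_pEx5_HOM (41.72 points, adjusted p = 5.2e-06). Bin1 was at 59.9 and 66.1 PSI against 23.4 and 21.3 (40.65 points, adjusted p = 8.37e-06). Mapkbp1, a scaffold of the JNK kinases, was at 56.3 and 63.9 PSI in Puf60_mEx5_HOM and 4.59 and 15.6 in Puf60_pEx5_HOM (49.98 points, adjusted p = 0.000814), with no more than 63 reads in any library of the study. Ppfia4 was at 83.3 and 83.9 PSI against 53.8 and 31.8 (40.76 points, adjusted p = 0.0095). In each of these 4 the libraries of the 2 lines did not overlap, and for Exoc1 and Bin1 both WT libraries, at 47.5 and 50.8 and at 34.3 and 41.3 PSI, lay between them. The call of Ppfia4 was lost in 3 of 4 fits that left out a library, at 29.75 points without library B of Puf60_pEx5_HOM.

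Most of the members higher here had also risen along differentiation in WT. The groups compared here share no library with the WT groups of the steps. The fits are not separate, however. The EB8 libraries of both homozygous lines were in the fits of the steps, and the WT EB8 libraries in this one, where they entered the filter and the estimate of spread. Of the 90 higher members, 79 had also risen in WT from EB8 to DIV7, which is 87.8% of the 90 and 59.8% of the 132 risers among the 230 members tested in both. Of the 80 higher members also tested from ESC to EB8, 71 had risen there (88.8% of the 80, and 67% of the 106 risers among 185 members tested in both). Of the 6 lower members, 3 had fallen in WT from EB8 to DIV7.

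Slit2, a secreted ligand of axon guidance, held both directions. Its 27-nt exon was at 64.1 and 63.5 PSI in Puf60_mEx5_HOM against 26.3 and 32.8 in Puf60_pEx5_HOM (34.26 points, adjusted p = 0.000409). Its 24-nt exon, upstream in the gene, was at 35.2 and 30.1 PSI against 82.9 and 83.3 (-50.44 points, adjusted p = 6.49e-05), with no more than 78 reads in any library of the study. WT lay between in both, at 54.9 and 46.7 PSI for the 27-nt and 65.3 and 64.7 PSI for the 24-nt exon. Of the 5 other lower members, Cacna2d2 stood at 39.7 and 47.2 PSI against 88.2 and 73.3 (-37.28 points, adjusted p = 0.000297), and Mroh1 at 21.5 and 19.2 PSI against 51.9 and 56 (-33.6 points, adjusted p = 1.36e-05). Sgce was at 65.1 and 61.4 PSI against 80.7 and 80.1 (-17.14 points). Mark3 was at 14.6 and 12.3 PSI against 25.6 and 31.5 (-15.07 points), and Mast3 at 6.96 and 4.42 against 12.9 and 28.7 (-15.14 points).

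Against WT at EB8, each homozygous Puf60 line gave fewer calls, mostly higher in Puf60_mEx5_HOM and all lower in Puf60_pEx5_HOM. In Puf60_mEx5_HOM 19 members were higher and 3 lower (0.770% of all events called, 0.499% higher and 0.271% lower), with a median of 5.47 points. In Puf60_pEx5_HOM 21 were lower and none higher (2.42% of all events called, 1.13% higher and 1.29% lower), with a median of -3.33 points. Both comparisons use the same 2 WT libraries. In Puf60_mEx5_HOM the 24-nt exon of Clasp2 was at 61.4 and 61.5 PSI, against 33.5 and 43.5 in WT (22.98 points, adjusted p = 0.0272). Fryl was at 65.1 and 61.4 PSI against 30.7 and 32.5 in WT (31.62 points, adjusted p = 0.0316), and the 24-nt exon of Synj1 at 82.3 and 78.2 against 53.9 and 61.3 (22.63 points, adjusted p = 0.0257). Those lower in Puf60_pEx5_HOM included Abi2, a subunit of the WAVE actin regulator, at 32.5 and 27.7 PSI against 58.1 and 51.1 in WT (-24.53 points, adjusted p = 0.0076). Zfyve27 was at 48.5 and 36.2 PSI against 58.9 and 67.9 (-21.01 points, adjusted p = 0.032). Ap1b1 was called in both lines, at 40.6 and 39.3 PSI in Puf60_mEx5_HOM, 8.49 and 5.04 in Puf60_pEx5_HOM and 22.1 and 17.9 in WT (adjusted p = 0.00359 and 0.000519). Src was called in both as well, at 69.1 and 72.6, 40 and 36.8, and 53.2 and 55.8 PSI in the same order of lines (adjusted p = 0.0197 and 0.0134). These calls depended on the fit. With equal weights for all libraries no member was called at EB8 in either line, and with no limit on mean PSI 2 were called in Puf60_mEx5_HOM and none in Puf60_pEx5_HOM. Leaving out library A or B of Puf60_mEx5_HOM gave 1 and 0 calls, and leaving out library A or B of WT gave 1 and 6. Of the named calls, those of Fryl and Synj1 were lost in 4 of 4 fits that left out a library, Clasp2 in 3, and Abi2 and Zfyve27 in 2 each. The calls of Ap1b1 and Src were not followed singly. In Puf60_mEx5_HOM both were lost without its library B, where no member was called. Without its library A the 1 call left was that of Mroh1, so both were lost there too. For Puf60_pEx5_HOM there were 2 calls without its library B and 9 without library B of WT.

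**Figure D4:**
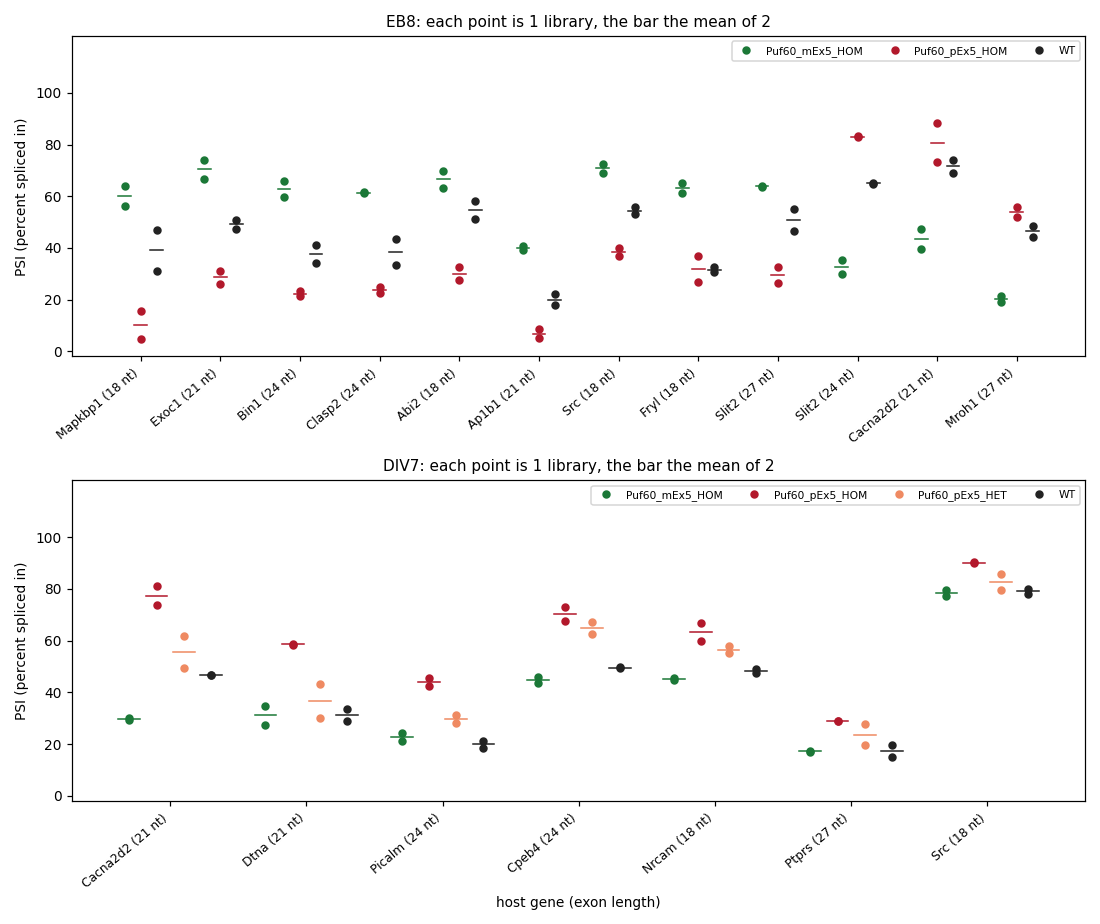
PSI of named microexons in each library (point) with the mean of 2 libraries (bar), at EB8 above and DIV7 below, for the Puf60 lines and WT. At EB8 most exons are ordered with Puf60_mEx5_HOM above WT and Puf60_pEx5_HOM below it, with the 24-nt Slit2 exon, Cacna2d2 and Mroh1 in the opposite order, and at DIV7 the Puf60_pEx5_HOM points are the highest for each of the 7 exons drawn there.

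Neuronal gene expression differed between the same libraries at EB8. The 5 neuron markers summed to 1180 to 1370 CPM in Puf60_mEx5_HOM, 533 to 612 in Puf60_pEx5_HOM and 791 to 889 in WT, with none of the 5 at 0. In the other lines they summed to 1050 to 1090 CPM in Puf60_pEx5_HET and 564 to 763 in Rbm38KO. The median differences of the members from WT at EB8 were 3.18 and -1.92 points in these 2 lines. In Puf60_mEx5_HOM against Puf60_pEx5_HOM 4 of the 5 were higher. Markers of other cells moved too. All 4 GABAergic and glycinergic markers were higher (135 to 141 CPM in Puf60_mEx5_HOM against 30.1 to 40.9 in Puf60_pEx5_HOM), as were 2 of 3 astrocyte markers (14.8 to 20.9 against 1.74 to 2.29 CPM) and 1 of 2 fibroblast and muscle markers (128 to 269 against 24.7 to 27.9 CPM). Also higher were 1 each of the glutamatergic, progenitor, oligodendrocyte and stem cell markers, while 1 stem cell and 1 endoderm marker were lower. Of 26 regulators 8 were higher and 1 lower, where 6.95% of all genes were higher and 3.05% lower. Srrm3 was at 48.6 and 51 CPM in Puf60_mEx5_HOM against 22 and 21 in Puf60_pEx5_HOM (1.18 on the log2 scale, limma, adjusted p = 2.43e-05). Rbfox1 (2.43), Rbfox3 (2.17), Celf4 (1.58) and Nova1 (1.3) were higher by more than Srrm3 on the log2 scale. Ptbp1 differed by -0.93 on the log2 scale (adjusted p = 0.00112), short of the 2-fold needed for a call. Srrm4 was at 38.5 and 45 CPM against 31.7 and 34.4 and was not called. The part of cell content, Srrm3 or other regulators in the exon differences was not tested.

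At DIV7 the calls of the Puf60_pEx5_HOM line went the other way. There 10 of 261 members were higher and none lower in Puf60_pEx5_HOM than in WT (1.55% of all events called, 0.730% higher and 0.820% lower), with a median of 2.44 points. The median was above 0 in the other edited lines too, at 1.44 points in Puf60_pEx5_HET, 1.43 in Puf60_mEx5_HOM and 0.59 in Rbm38KO. All 4 comparisons use the same 2 WT libraries, so a positive median at DIV7 was not particular to Puf60_pEx5_HOM. Cacna2d2 was at 81.1 and 73.8 PSI against 46.9 and 46.9 in WT (30.54 points, adjusted p = 7.16e-05). Dtna, α-dystrobrevin, was at 58.6 and 58.5 PSI against 28.9 and 33.7 (27.26 points, adjusted p = 0.00121). Picalm, a clathrin assembly protein, was at 42.5 and 45.6 PSI in Puf60_pEx5_HOM, 31.2 and 28 in Puf60_pEx5_HET and 21.3 and 18.5 in WT (24.16 points for the homozygous line, adjusted p = 0.000337). Libraries of the homozygous line and WT did not overlap in any of these 3 exons. Src was called lower at EB8 and higher at DIV7, at 90.4 and 89.9 PSI against 80.1 and 78 in WT at DIV7 (11.13 points, adjusted p = 0.017). The 5 stem cell markers summed to 160 to 224 CPM in Puf60_pEx5_HOM and 46.9 to 55.9 in WT at DIV7, with 4 of 5 higher, and the 3 astrocyte markers to 47.4 to 105 CPM against 268 to 390, with 2 of 3 lower. Lower as well were 2 of 3 oligodendrocyte markers, both endoderm markers and 1 of 4 progenitor markers, where 0.868% of all genes were higher and 1.70% lower. Their part in these differences was not tested. With equal weights, or with no limit on mean PSI, no member was called, and 6 and 5 were called without library A of WT and without library A of Puf60_pEx5_HOM. In Puf60_mEx5_HOM against WT at DIV7 limma called no member, with 32 at an unadjusted p under 0.05 and 0.0978% of all events called.

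Between the homozygous lines at DIV7, 3 members were higher and 13 lower in Puf60_mEx5_HOM (3.20% of all events called, 1.61% higher and 1.59% lower). Cacna2d2 again differed most, at 29.2 and 30.2 PSI against 81.1 and 73.8 in Puf60_pEx5_HOM (-47.81 points, adjusted p = 1.16e-07), and was lower at both stages where it was measured. In the same comparison 4 of 5 stem cell markers were lower (37.4 to 37.8 CPM in Puf60_mEx5_HOM against 160 to 224 in Puf60_pEx5_HOM). All 3 astrocyte markers were higher (235 to 335 against 47.4 to 105 CPM), as were 2 of 3 oligodendrocyte markers, 1 of 2 fibroblast and muscle markers and 1 of 2 endoderm markers, where 1.54% of all genes were higher and 1.25% lower. Their part in the exon differences was not tested. Cpeb4, which binds cytoplasmic polyadenylation elements, was at 43.8 and 45.9 PSI against 67.8 and 73 (-25.51 points, adjusted p = 0.000914). The exon of its paralogue Cpeb3 was at 80 and 76.3 PSI in Puf60_mEx5_HOM and 81.2 and 71 in Puf60_pEx5_HOM and was not called (adjusted p = 0.872). Nrcam, a neuronal adhesion molecule, was higher in Puf60_mEx5_HOM at EB8, with 47.4 and 53.4 PSI against 35.4 and 16.7, and lower at DIV7, with 44.6 and 45.4 against 66.8 and 60 (adjusted p = 0.00529 and 0.00281). Trappc9, of the TRAPP vesicle-tethering complex, was higher in Puf60_mEx5_HOM at both stages, at 38 and 42.4 PSI against 17.5 and 12.9 at EB8, and 84.1 and 85.6 against 61.7 and 70.6 at DIV7 (adjusted p = 0.00109 and 0.000985). Under equal weights 1 member was called at DIV7, and 4 with no limit on mean PSI.

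The step from EB8 to DIV7 was larger in Puf60_pEx5_HOM than in WT for 5 of 250 members, by a test of the difference between the steps, and smaller for none, where 0.195% of all events were called, 0.108% larger and 0.0870% smaller. Over the members the median of this difference was 7.02 PSI points, against -0.57 over all events. In Puf60_pEx5_HOM the Src exon was at 90.4 and 89.9 PSI at DIV7 and 40 and 36.8 at EB8, and in WT at 80.1 and 78 and at 53.2 and 55.8, a step 27.18 points larger (limma, adjusted p = 0.0034). The Abi2 exon was at 89.9 and 89.3 PSI at DIV7 and 32.5 and 27.7 at EB8 in Puf60_pEx5_HOM, and at 82.4 and 84.7 and at 58.1 and 51.1 in WT (30.61 points larger, adjusted p = 0.0341). Cpeb4 was at 67.8 and 73 PSI at DIV7 and 42.2 and 34.7 at EB8 in Puf60_pEx5_HOM, while in WT it was at 49.9 and 49.3 and at 50.7 and 56.4, with no rise (35.86 points, adjusted p = 0.0364). Ptprs, a receptor tyrosine phosphatase of axons, had a 27-nt exon at 28.8 and 28.9 PSI at DIV7 and 11.8 and 12.6 at EB8 in Puf60_pEx5_HOM, against 19.8 and 15.1 and 17.1 and 17.8 in WT (16.63 points, adjusted p = 0.0145). The 27-nt exon of Slit2 was at 82.4 and 83.4 PSI at DIV7 and 26.3 and 32.8 at EB8 in Puf60_pEx5_HOM, and at 58.1 and 76.8 and at 54.9 and 46.7 in WT (36.71 points, adjusted p = 0.0438). With equal weights for all libraries none of the 5 was called, at adjusted p of 0.134 to 0.302.

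No other line had a member with a step called different from that of WT. From EB8 to DIV7, 32 members of Puf60_mEx5_HOM, 20 of Puf60_pEx5_HET and 27 of Rbm38KO had an unadjusted p under 0.05 in limma, beside 82 of Puf60_pEx5_HOM. From ESC to EB8 the numbers were 19, 7, 6 and 24 in the order Puf60_mEx5_HOM, Puf60_pEx5_HET, Rbm38KO and Puf60_pEx5_HOM, with none called. Of all events, 0.00414% were called in Puf60_mEx5_HOM from EB8 to DIV7, 0.0144% in Puf60_pEx5_HOM from ESC to EB8 and 0 in the other lines and steps. The 24-nt exon of Synj1 was called in opposite directions in 2 lines. In Puf60_mEx5_HOM it was lower at DIV7, at 66 and 67.5 PSI against 82.3 and 78.2 at EB8 (-13.46 points, adjusted p = 0.0105), while it rose in WT.

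In stem cells fewer members could be tested, and few were called. Of 119 tested, 3 were higher and 4 lower in Puf60_pEx5_HOM than in WT, with 1.52% of all events called, 0.737% higher and 0.783% lower. The share called was 5.88% of the tested members, against 7.84% at EB8 and 3.83% at DIV7 in the same comparison. None was called by limma in Puf60_mEx5_HOM against WT, where 8 had an unadjusted p under 0.05 and 0.00455% of all events were called. Fip1l1, a cleavage and polyadenylation factor, was at 35 and 36.5 PSI in Puf60_pEx5_HOM against 56.9 and 60.7 in WT (-23.07 points, adjusted p = 0.00392). It was also lower at EB8, at 71.1 and 77.1 PSI against 86.2 and 87.6 (-12.8 points, adjusted p = 0.0259). The 21-nt exon of Senp6, a SUMO protease, was at 58.2 and 62.2 PSI against 39.6 and 35.7 in WT (22.59 points, adjusted p = 0.00716). Flna, filamin A, was at 34.5 and 41.9 PSI against 22.9 and 27.5 (13.01 points, adjusted p = 0.0389). Cdk5rap2, a centrosomal protein, was at 12 and 5.71 PSI against 23.9 and 23.6 in WT (-14.88 points, adjusted p = 0.0348). With equal weights, or with no limit on mean PSI, no member was called, and leaving out library A or B of WT or B of Puf60_pEx5_HOM gave 2, 1 and 2 calls. The calls of Senp6, Flna and Cdk5rap2 were each lost in 3 of 4 fits that left out a library, and that of Fip1l1 without library B of WT. The 2 fibroblast and muscle markers, Col1a1 and Acta2, were both lower in Puf60_pEx5_HOM (11.2 to 30.8 CPM summed) than in WT (139 to 181 CPM), the progenitor marker Nes was lower and Gad1 higher, and no stem cell marker was called, where 0.969% of all genes were higher and 1.50% lower. Their part in the exon differences was not tested. Puf60_mEx5_HOM against Puf60_pEx5_HOM gave 5 members higher and 5 lower at ESC (2.62% of all events called, 1.31% in each direction). They included Atp6v0a1, a subunit of the vacuolar proton pump, at 45 and 51.5 PSI in Puf60_mEx5_HOM against 27.1 and 27.9 (20.75 points, adjusted p = 0.035), and Uggt1, a folding sensor of the endoplasmic reticulum, at 51.3 and 66.8 against 87.3 and 89.4 (-29.26 points, adjusted p = 0.00236). Under equal weights 1 member was called, as with no limit on mean PSI. There were 5 calls from the libraries of the 2 lines alone, 6 without library A of Puf60_mEx5_HOM and 5 without library B of Puf60_pEx5_HOM, and that of Atp6v0a1 was lost whichever of the 4 libraries was left out. Col1a1 and Acta2 summed to 351 to 399 CPM in Puf60_mEx5_HOM against 11.2 to 30.8 in Puf60_pEx5_HOM and were both higher, as were 2 of 4 progenitor markers, while Gad1 was lower, where 1.59% of all genes were higher and 0.875% lower.

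No member was called by limma in Puf60_pEx5_HET or Rbm38KO against WT at any stage. In Puf60_pEx5_HET 6, 54 and 21 members had an unadjusted p under 0.05 at ESC, EB8 and DIV7, and in Rbm38KO 8, 32 and 14, beside 0.0136, 0.0107 and 0.0188% of all events called for Puf60_pEx5_HET and 0, 0.00357 and 0% for Rbm38KO. At EB8 the median difference from WT was 3.18 points in Puf60_pEx5_HET and -1.92 in Rbm38KO. Abi2 was at 37.7 and 25.4 PSI in Rbm38KO against 58.1 and 51.1 in WT at EB8, and Exoc1 at 35.1 and 27.2 against 47.5 and 50.8, without passing the adjusted threshold. At EB8 the Rbm38KO libraries differed more from each other than those of WT, with library medians of 35.2 and 25.6 PSI.

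The authors' deposited table marks comparisons of its own as significant without stating the criterion. For EB8 it marks 135 of the 1542 members (8.75%) in Puf60_mEx5_HOM against Puf60_pEx5_HOM, where it marks 1.34% of all events. In Puf60_mEx5_HOM against WT the authors' deposited table marks 83 members (5.38%) and 0.753% of all events, and in Puf60_pEx5_HOM against WT 283 members (18.4%) and 8.29% of all events.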

How the data were processed

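The deposited splicing table gives, for each event and library, the authors' percent spliced in (PSI) and, in a quality field, numbers of inclusion and exclusion reads. Its format and name are those of vast-tools, whose version and settings the sources used here do not name. The genome is mm10, per the submitters' processing notes, which also name Salmon 0.14.1 and edgeR without a role. The deposited PSI lay within 0.1 points of inclusion reads over all reads in all 27886 member values with 10 or more reads. The authors' RPKM table holds 1 value per group, and how libraries were combined is not stated in the sources used here. A further deposited table marks events as significant. Per the file headers, event lengths are in nucleotides.

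Read-weighted limma 3.58.1 with robust moderation (R 4.3.3) was fitted to log2((inclusion + 1)/(exclusion + 1)) over all events with 10 reads in every library of a fit and a mean PSI of 5 to 95. Comparisons of lines used the 10 libraries of a stage, and steps and their differences the 20 libraries of 2 stages, where all lines share 1 estimate of spread. A call needed 10 PSI points and a p under 0.05 after Benjamini-Hochberg adjustment. Gene expression is CPM, spliced reads per gene scaled to 1000000 per library, scaled by the median of ratios. It was tested with limma on log2(CPM + 1) over 13938 genes with 1 CPM in at least 2 libraries, and called at an adjusted p under 0.05 and 2-fold, so fold changes of weakly expressed genes are understated. These rest on junction reads. Tables were made with Python 3.11.15, pandas 2.3.3 and numpy 2.4.6.

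The splicing fit was tested on simulated data with 50 events changed by each of 10, 20, 30 and 40 PSI points. For Puf60_mEx5_HOM against WT at EB8 it called 10, 46, 64 and 90% of them, with 5 of 27846 unchanged events called. For DIV7 against EB8 in WT it called 12, 60, 90 and 100%, with 5 of 23934. In the real data 3991 events (16.5%) were called in this WT step, far more than were changed in the simulation. The p-value adjustment was therefore not under the same conditions, and the shares recovered need not hold for the real step. The spread between libraries was simulated too. Whether so few unchanged events would be called under the real spread of each event was not tested. Limits for a count of 0 are 3 reads over the reads of both libraries, and these limits and intervals cover counting error only.

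The members and gene lists were chosen with earlier results of these data known. Microexons are named by rule: per WT step the 14 that rose and 8 that fell most among called members whose libraries did not overlap. Added to these were up to 4 per line, stage and direction, those called at 2 or more stages of a line, those whose step differed from that of WT, up to 4 per list by range of mean PSI, and the 3 tested members with the most and the 3 with the least inclusion in WT neurons. The rule for lines also served Puf60_mEx5_HOM against Puf60_pEx5_HOM. The exons of Nrxn3 and Kif1a, the further exons of Clasp1 and Clasp2, and the pairing of paralogous exons were chosen after their values were seen. Alternatives were a minimum of 20 reads, a prior of 0.5 read, no weights, no PSI limits, the libraries of the compared groups alone, adjustment over cassette exons, the library letter as a block, each library left out, and for expression another scaling, pseudocount or filter. Sequences and annotation are from GENCODE vM21. A microexon that the rule names is not reported here.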

Additional observations from a re-analysis of the deposited data

Results flagged for a closer look

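The tests of the difference between steps singled out 5 microexons, each with a larger step from EB8 to DIV7 in Puf60_pEx5_HOM than in WT. The step was 27.2 PSI points larger for the 18-nt exon of Src (limma, adjusted p = 0.0034), 36.7 points for the 27-nt exon of Slit2 (adjusted p = 0.0438) and 16.6 points for the exon of Ptprs (adjusted p = 0.0145). It was 30.6 points larger for Abi2 (adjusted p = 0.0341) and 35.9 points for Cpeb4 (adjusted p = 0.0364). In all 5 both Puf60_pEx5_HOM libraries were higher than both WT libraries at DIV7 and lower than both at EB8. All 5 were called with a minimum of 20 reads, with a prior of 0.5 read and with the library letter as a block, and none without weights. They were not checked with a library left out, with fewer groups, without the limits on mean PSI or with adjustment over cassette exons. The neuron marker sums at EB8 were 533 to 612 CPM in Puf60_pEx5_HOM and 791 to 889 CPM in WT, and the part of cell content in these differences was not tested.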

How the results depend on the processing

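The counts of microexons called along differentiation stayed within 1.5 times the reported ones under each alternative run, and no named difference changed sign. Leaving out 1 library gave 135 to 150 calls for DIV7 against EB8 in WT (150 reported), 612 to 633 summed over the 4 edited lines (639), 98 to 112 for EB8 against ESC in WT (116) and 442 to 465 over the edited lines (470). Differences between lines were less stable. Summed over stages, without weights there were 0 calls for Puf60_pEx5_HOM against WT (38 reported), 0 for Puf60_mEx5_HOM against WT (22) and 53 for Puf60_mEx5_HOM against Puf60_pEx5_HOM (122), and 0 steps that differed from WT (5). Without the limits on mean PSI, which adds events to the adjustment, these comparisons gave 0, 2 and 58 calls, and Puf60_pEx5_HET against WT gave 1 (0 reported). Puf60_mEx5_HOM against WT gave 7 calls when adjusted over cassette exons and 35 with the libraries of the 2 groups alone. With 1 library left out the summed counts were 19 to 37 for Puf60_pEx5_HOM against WT, 0 to 22 for Puf60_mEx5_HOM against WT, 88 to 123 for Puf60_mEx5_HOM against Puf60_pEx5_HOM, and 0 each time for Puf60_pEx5_HET and for Rbm38KO against WT. The lowest of these for Puf60_pEx5_HOM, 19, was without its EB8 library B. The differences by which the rule named exons were followed with 1 library left out, apart from the 5 between steps. Of these fits, 76 of 356 lost the call, among them all 4 each for Atp6v0a1 at ESC and for Fryl and the 24-nt Synj1 exon at EB8. Also, 43 calls were lost without weights, 34 without the limits on mean PSI, 6 when adjusted over cassette exons, 6 with the libraries of the 2 groups alone, 2 with a prior of 0.5 read and 1 with a minimum of 20 reads. Calls of host and regulator expression, WT between stages, numbered 838 to 868 with 1 WT library left out (853 reported). The cause of these changes was not tested.

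Libraries of the same letter deviated together little, at correlations of 0.04 to 0.1 in stem cells, -0.02 to 0.09 in embryoid bodies and -0.06 to 0.08 in neurons, so the letter was not taken to pair libraries. With the letter as a block none of the named calls was lost, and 6 steps differed from WT (5 reported). Members under 10 reads in a library stayed untested. With 142 reads, the median, counting error alone spans 41.9 to 58.1 PSI, and with 66 reads 38.3 to 61.7.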

Other observations

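Some microexons that rose along differentiation in WT had lengths that are not multiples of 3 and so shift the reading frame. The 17-nt exon of Pdlim7, a PDZ and LIM domain protein of actin structures, was at 1.43 and 2.91 PSI at ESC, 7.45 and 10.5 at EB8 and 64.1 and 80.8 at DIV7. Its last step was 63.48 points (limma, adjusted p = 5.93e-10). The 23-nt exon of Arhgap23, a GTPase-activating protein, was at 0 in both ESC libraries, at 29.4 and 37.6 PSI at EB8 and at 90.4 and 94.7 at DIV7. The 23-nt exon of Plch1, a phospholipase C, was likewise at 0 at ESC and reached 76.8 and 78.7 PSI at DIV7, against 17.6 and 17.1 at EB8. The 25-nt exon of Lrrc16a, a regulator of actin capping, was at 67.1 and 73.8 PSI at DIV7 against 16.8 and 2.17 at EB8. In each of these 4 exons both libraries of DIV7 were above both of EB8. For Pdlim7, Plch1 and Lrrc16a the naming rule required this, so it adds nothing to their calls.

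Frame-keeping exons named by the same rule included those of Pus7, a pseudouridine synthase, and Ipo11, a nuclear import receptor. Pus7 was at 0 at ESC, 14.4 and 13.2 PSI at EB8 and 66.6 and 81.8 at DIV7, and Ipo11 at 1.33 and 0, 10.5 and 13.2, and 69.7 and 72.8 PSI at the same stages. Gripap1, on the X chromosome, went the other way, at 59.2 and 79.6 PSI at ESC, 64.3 and 73.7 at EB8 and 34.4 and 39.3 at DIV7 (-32.1 points in the last step, limma, adjusted p = 4.82e-06). The 23-nt exon of Unc13b, a priming factor of synaptic vesicles, stayed between 0 and 1.91 PSI at all 3 stages.

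In stem cells the exon of the catenin Ctnnd1 was at 54.9 and 66.8 PSI in Puf60_mEx5_HOM against 76.4 and 75.5 in Puf60_pEx5_HOM (-15.12 points, limma, adjusted p = 0.021). Without library A of Puf60_mEx5_HOM it was -9.14 points and not called, and the call was also lost without either library of Puf60_pEx5_HOM (-14.69 and -15.55 points). Kifc3, a minus-end directed kinesin, was at 20.1 and 27 PSI against 42.5 and 44.8 (-20.15 points, limma, adjusted p = 0.016), a call lost without the same 3 libraries (-16.72 to -21.29 points). The exon of the adhesion molecule Pecam1 was at 24 and 26.7 PSI in Puf60_mEx5_HOM against 6.15 and 9.57 in Puf60_pEx5_HOM (17.5 points, limma, adjusted p = 0.0033), with WT at 19 and 23.7.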
